A study of Homo sapiens with 18 samples.

Results

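The genes described here are 43 lysosomal genes, taken by symbol from the 20365 genes in each of the study's expression tables. They encode acid hydrolases, lysosomal membrane proteins, subunits of the vacuolar proton pump (V-ATPase), the MiT transcription factors TFEB, TFE3 and MITF, and the mannose 6-phosphate receptors. The lysosome is the acidic compartment in which cells break down proteins, glycans, lipids and worn-out organelles. The V-ATPase, built from a membrane sector (V0) that conducts protons and a cytosolic sector (V1) that hydrolyses ATP, keeps its lumen acidic, and mannose 6-phosphate receptors carry newly made hydrolases to it. MiT factors bind E-box motifs in the promoters of many lysosomal genes and are held in the cytoplasm by the nutrient-sensing kinase complex mTORC1, which itself sits on the lysosomal surface.

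RNA was sequenced from PC3, an established human prostate cancer cell line, in 6 groups of 3 libraries. One experiment knocked down Elongin B (EloB KD) or, separately, Elongin C (EloC KD) with short hairpin RNAs delivered by lentivirus, beside cells labelled Control KD, with 10% serum in the medium. In the other experiment, cells in 2.5% serum received a BC-box peptide of wild-type sequence (WT peptide), a mutant version (Mutant peptide) or a scrambled peptide, each at 12.5 µM for 24 h. Elongin B and Elongin C form a pair that joins BC-box proteins to cullin ubiquitin ligases and to the transcription elongation factor Elongin A. The labels do not give the hairpin or peptide sequences, how many hairpins were used, or whether the replicates came from separate cultures, and the p-values therefore measure only the spread between these libraries.

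The knockdown libraries held 40288528 to 57225737 counted reads and the peptide libraries 31671205 to 34699856. ELOB stood at 2626, 4118 and 4950 normalised reads in Control KD and at 596, 478 and 535 in EloB KD (log2 fold change -2.82 ± 0.20 SE, limma adjusted p = 3.55e-05). ELOC stood at 4797, 4097 and 4547 in Control KD and at 492, 497 and 558 in EloC KD (-3.12 ± 0.10, adjusted p = 1.41e-07). Each targeted gene was low in all 3 libraries of its own knockdown, and the other Elongin gene did not pass the test in either. Of the tissue markers, a list of 6 genes of epithelium and PC3, VIM among them, summed to between 79498 and 107237 normalised reads in the knockdown libraries. Lists of other tissues were also counted. In Control KD, 5 prostate luminal markers summed to 177 to 180. There, 8 macrophage and osteoclast markers summed to 2418 to 2880, and 4 endothelial markers to 3520 to 5668. The prostate antigen gene KLK3 and the macrophage gene AIF1 were each the 1 gene of their list with no read in the knockdown libraries. The sum of 6 fibroblast markers was 888 to 1275 in Control KD, 895 to 1403 in EloB KD and 2944 to 3659 in EloC KD, led by COL1A1, so it moved with the EloC KD results below. Its part in them was not tested.

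All values below are DESeq2-normalised read counts. Fold changes are differences of log2(count + 1) with the standard error of limma's fit, which tested every gene whose mean reached 10 across an experiment's 9 libraries. Of the 43 genes, 42 passed this filter in the knockdown libraries and 40 in the peptide libraries. HEXA, the α subunit of β-hexosaminidase, had at most 1 read in any knockdown library and is listed at 0 in all 9 peptide libraries. HEXA shares 4.9% of its annotated exon bases on the same strand and 13% on the opposite strand with other annotation. Why its counts are near 0 was not tested. The annotation used for counting is not given in the sources used here, so these shares may not apply to the counting. GPNMB and ATP6V0A1 fell under the filter in the peptide experiment, and ATP6V0A1 passed it in the knockdown experiment only through its EloC KD values, so counts are also given without it.

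Per 1000 bases of annotated exon, PSAP (11473 ± 816 SD, n = 3) and CD63 (10555 ± 942) were the highest of the 43 genes in Control KD and did not differ beyond their spread. CTSZ (4452 ± 462) and ATP6V0E1 (3252 ± 180) came next. The same 4 genes led in the scrambled peptide libraries, there with CD63 (7697 ± 188) above PSAP (6014 ± 160). At the low end in Control KD were TFEB (21.3 ± 6.48), GPNMB (4.87 ± 0.97) and ATP6V0A1 (0.45 ± 0.14). The 3 MiT factors spanned a wide range on this scale, with TFE3 at 1167 ± 146 and MITF at 222 ± 57.1. The scale divides by the union of all annotated exons, which is 2038 bases for CTSZ and 5856 for CTSA. The order of genes therefore depends on annotated length. In normalised reads, CTSA (mean 13749 in Control KD) was above CTSZ (9073).

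Most of these genes rose in EloC KD and few rose in EloB KD. Together the 43 genes took 0.546% ± 0.0263 (SD, n = 3) of the counted reads in Control KD, 0.631% ± 0.0305 in EloB KD and 0.822% ± 0.104 in EloC KD. The 3 EloC KD libraries, at 0.751% to 0.942%, lay above all other libraries. In bulk RNA, a change in how many cells express a gene and a change in RNA per cell cannot be told apart. The peptide groups stood at 0.537% ± 0.01 (scrambled), 0.529% ± 0.0114 (mutant) and 0.523% ± 0.00665 (WT), a different experiment normalised on its own. The plot of read shares shows EloC KD replicate 2 as the highest library.

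**Figure D1:**
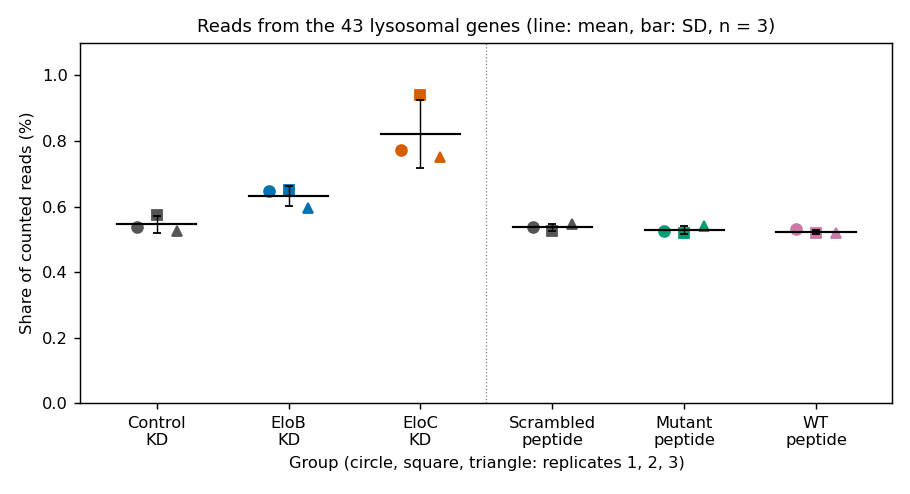
Share of counted reads (%) that came from the 43 lysosomal genes in each library, by group; circles, squares and triangles are replicates 1, 2 and 3, lines are means and bars SDs (n = 3). The EloC KD libraries lie between 0.751% and 0.942%, above the libraries of the other groups.

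In EloC KD against Control KD, 28 of the 42 genes tested rose and 1 fell (limma, Benjamini-Hochberg over 13764 genes, 0.05). Of all genes tested, 21.3% rose and 21.2% fell in this comparison. The median log2 fold change was 0.59 over the 42 genes and 0.01 over all genes, and 36 of the 42 were positive. Leaving out ATP6V0A1, 27 of 41 rose and the median was 0.58. The EloC KD and Control KD libraries did not overlap for 30 genes that were higher (29 without ATP6V0A1) and 1 that was lower, against 26.5% and 27.2% of all genes. Without EloC KD replicate 2, 24 genes rose, none fell and the median was 0.48. With the replicate number as a block in the fit, 34 rose and 2 fell, beside 28.7% and 28.3% of all genes, adding CTSL (adjusted p = 0.0227) among those that rose and CTSZ (0.0371) as the second that fell. EloC KD replicate 2 was the highest of its group for 35 of the 42 genes, and for 38% of all genes.

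In EloB KD against the same Control KD libraries, 4 of the 42 genes rose (CTSL, GUSB, NAGLU and ATP6AP1) and ATP6V1B2 fell, beside 9.34% and 11.2% of all genes. The median of the 42 was 0.14, and that of all genes 0.00. Non-overlapping libraries were found for 12 genes that were higher (11 without ATP6V0A1, 18.8% of all genes) and 4 that were lower (19.6%). Adding the replicate number to the fit as a block gave 9 genes that rose, the added ones being CTSA, CTSD, LAMP2, ATP6V1A and ATP6V1D, and 3 fell, adding CTNS and TFE3, beside 17.5% and 18.8% of all genes. Without Control KD replicate 1 or 2, or EloB KD replicate 1 or 3, only 2 genes rose.

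The direct comparison of the knockdowns, which uses no control library, found 25 of the 42 genes lower in EloB KD than in EloC KD and 4 higher, beside 23.8% and 22.3% of all genes. Without ATP6V0A1, 24 of 41 were lower. The median difference was -0.56, against -0.01 for all genes, and -0.42 without EloC KD replicate 2. Libraries did not overlap for 26 genes lower (25 without ATP6V0A1, 29.2% of all genes) and 4 higher (27.1%). Of the 28 genes that rose in EloC KD, 23 were not called in EloB KD and were lower in EloB KD than in EloC KD by this test. Both the 28 and the 23 include ATP6V0A1. ATP6AP1 rose in both knockdowns. LAMP2, ATP6V0E1 and ATP6V1D rose in EloC KD with a difference between the knockdowns that did not pass the test, and 7 genes passed in no knockdown comparison (SGSH, LIPA, PPT1, ATP6AP2, ATP6V1A, ATP6V1E1 and TFEB). The plot of fold changes by role sets both knockdowns side by side.

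**Figure D2:**
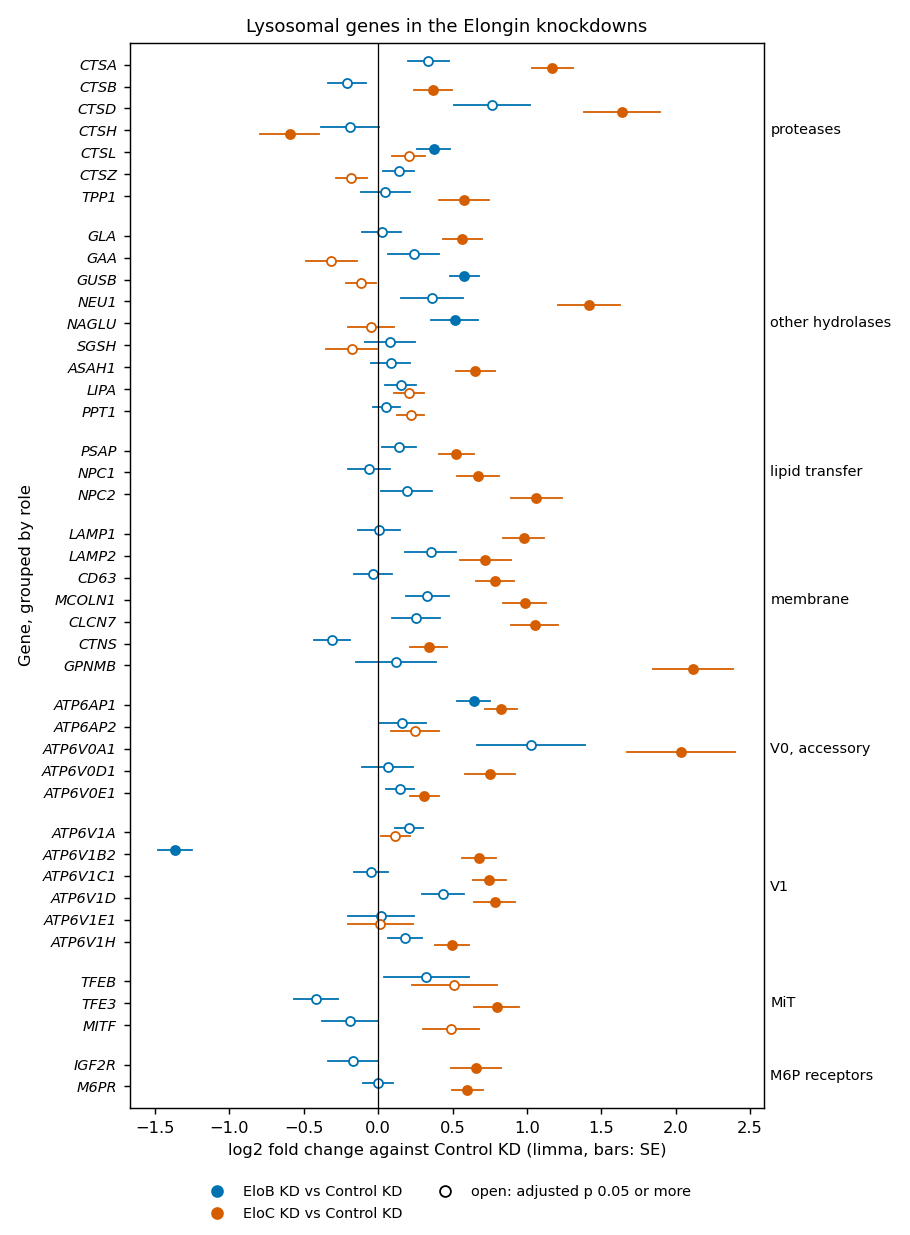
Log2 fold change (x axis, limma, bars are SE) of the 42 lysosomal genes tested, grouped by role, in EloB KD (blue) and EloC KD (orange) against the same 3 Control KD libraries; filled points have an adjusted p under 0.05. Most orange points lie to the right of 0, up to 2.12 for GPNMB (ATP6V0A1 was tested only through its EloC KD counts), and the blue point of ATP6V1B2 lies at -1.36.

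Among the 7 lysosomal proteases, 4 rose and 1 fell in EloC KD, beside 21.3% and 21.2% of all genes. CTSD, the main aspartic protease of the lysosome, stood at 1797, 3117 and 3631 in Control KD, 5110, 4893 and 3983 in EloB KD, and 6344, 10989 and 8818 in EloC KD. The 3 groups did not overlap for CTSD, with EloB KD between the others. Its log2 fold change was 1.64 ± 0.26 in EloC KD (3.11-fold, adjusted p = 0.000604) and 0.76 ± 0.26 in EloB KD, where it missed the threshold (adjusted p = 0.0582; 0.014 with the replicate block). CTSD lies at chr11:1752752-1764573 (GRCh38, minus strand), and 41.7% of its annotated exon bases are shared with another gene on the same strand, so the counting could split its reads.

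CTSA, a serine carboxypeptidase that also protects neuraminidase and β-galactosidase, stood at 13569, 14812 and 12866 in Control KD, 18634, 17382 and 16053 in EloB KD, and 28040, 39163 and 26773 in EloC KD. Again no group overlapped another, and the EloC KD change was 1.17 ± 0.14 (adjusted p = 0.000122), against 0.34 ± 0.14 in EloB KD (0.11; 0.0256 with the block). TPP1, a tripeptidyl peptidase, rose by 0.58 ± 0.17 in EloC KD and CTSB, an abundant cysteine protease, by 0.37 ± 0.13. Both of these calls were lost without EloC KD replicate 2 (adjusted p = 0.0621 for TPP1 and 0.143 for CTSB) and without Control KD replicate 3 (0.0637 and 0.114). CTSB also missed the threshold without Control KD replicate 1 (0.0971) and in a fit of only the 2 groups (0.0538).

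CTSL, another cysteine protease, rose in EloB KD instead. It stood at 3614, 3162 and 3585 in Control KD, 4549, 4058 and 4816 in EloB KD, and 4061, 3468 and 4446 in EloC KD. The EloB KD libraries lay above Control KD (0.37 ± 0.11, adjusted p = 0.038), while EloC KD overlapped both (0.20 ± 0.11, 0.163), and the difference between the knockdowns did not pass the test (0.241). The CTSL call in EloB KD was lost without any 1 of 5 of the 6 libraries compared, with adjusted p up to 0.13. CTSH, an aminopeptidase, was the 1 gene that fell in EloC KD, from 366, 341 and 402 to 263, 206 and 267 (-0.60 ± 0.20, adjusted p = 0.0318). This call was lost without any 1 Control KD library or without EloC KD replicate 2 (adjusted p 0.0504 to 0.114). CTSZ, a carboxypeptidase, was called in neither knockdown (0.14 ± 0.10 and -0.18 ± 0.10) but exceeded its EloC KD level in EloB KD by 0.32 ± 0.10, a difference that did not pass without EloB KD replicate 2 or 3 or EloC KD replicate 1 or 3 (adjusted p 0.0691 to 0.105).

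Different hydrolases of glycans and lipids were called in each knockdown, and most were called in neither. Of the 9 tested, NEU1, ASAH1 and GLA rose in EloC KD (21.3% of all genes rose) and GUSB and NAGLU in EloB KD (9.34%). NEU1, the lysosomal sialidase, stood at 219, 289 and 239 in Control KD, 333, 337 and 287 in EloB KD, and 563, 940 and 543 in EloC KD. The EloC KD libraries were all above the others (1.41 ± 0.21, adjusted p = 0.00045). ASAH1, acid ceramidase, rose by 0.65 ± 0.13 and GLA, α-galactosidase A, by 0.57 ± 0.13, both with non-overlapping libraries.

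GUSB, β-glucuronidase, stood at 1719, 2062 and 2059 in Control KD, 2681, 3023 and 3010 in EloB KD, and 1749, 1885 and 1740 in EloC KD. Its EloB KD libraries were the highest (0.58 ± 0.10, adjusted p = 0.00294), EloC KD overlapped the control (-0.12 ± 0.10, 0.376), and the difference between the knockdowns passed the test (0.70 ± 0.10, 0.000322). NAGLU, an enzyme of heparan sulfate breakdown, stood at 344, 450 and 498 in Control KD, 674, 554 and 600 in EloB KD, and 376, 414 and 446 in EloC KD. Its rise in EloB KD was 0.51 ± 0.16 (adjusted p = 0.0409), and leaving out any library but Control KD replicate 3 ended that call (up to 0.125), as did fitting without the filter (0.0519) or on only the 2 groups (0.0683). NAGLU shares 12.6% of its exon bases with another gene on the same strand.

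GAA, acid α-glucosidase, which degrades glycogen, did not pass in either knockdown (0.24 ± 0.17 and -0.32 ± 0.17) but its EloB KD level exceeded that in EloC KD by 0.55 ± 0.17 (adjusted p = 0.0217). That difference did not pass without EloB KD replicate 1 (0.0819), EloC KD replicate 1 (0.076) or EloC KD replicate 2 (0.0549). Without Control KD replicate 1, GAA was called lower in EloC KD (-0.48, adjusted p = 0.0414). The sulfatase SGSH, the acid lipase LIPA and the thioesterase PPT1 had log2 fold changes between -0.18 and 0.22 in the knockdowns and passed none of these tests. In EloC KD, LIPA (0.21 ± 0.10) and PPT1 (0.22 ± 0.09) had libraries that did not overlap Control KD, and both passed once the replicate number was a block (adjusted p = 0.0339 and 0.0464). LIPA also lay above Control KD (8674, 8816 and 7445) in every EloB KD library (9266, 9478 and 8869).

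All 3 genes for lipid handling in the lumen rose in EloC KD and none passed the test in EloB KD, also at an unadjusted p under 0.05. By the adjusted test, 21.3% of all genes rose in EloC KD, and 9.34% rose and 11.2% fell in EloB KD. NPC2, a soluble cholesterol carrier, stood at 5026, 6158 and 4567 in Control KD, 5495, 6841 and 5595 in EloB KD, and 9987, 14242 and 9078 in EloC KD (1.06 ± 0.17, adjusted p = 0.000735). NPC1, the membrane protein that takes cholesterol from NPC2, rose from 8377, 7754 and 6027 to 12522, 12879 and 9802 (0.67 ± 0.14). The EloC KD libraries exceeded every library of the other groups for both. PSAP, the precursor of the saposins, which present sphingolipids to hydrolases, rose by 0.53 ± 0.11, and its EloB KD value was 0.14 ± 0.11.

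Lysosomal membrane genes rose in EloC KD in 7 of 7 cases, with a median of 0.98, and in EloB KD in 0 of 7, with a median of 0.12. Of all genes, 21.3% rose in EloC KD and 9.34% in EloB KD. At an unadjusted p under 0.05, 2 of the 7 had a difference in EloB KD. LAMP1, one of the most abundant lysosomal membrane glycoproteins, stood at 6096, 7052 and 6936 in Control KD, 6301, 7397 and 6447 in EloB KD, and 11466, 16746 and 11842 in EloC KD. The first 2 groups overlapped (0.00 ± 0.14), and EloC KD lay above them (0.98 ± 0.14, adjusted p = 0.000381). LAMP2, its relative with roles in autophagy, was less separated, at 10343, 12589 and 9552, then 12579, 16858 and 12241, then 15786, 22554 and 15586 in the same order of groups. LAMP2 rose in EloC KD (0.72 ± 0.17), and its 0.35 ± 0.17 in EloB KD passed only with the replicate block (adjusted p = 0.00265, against 0.176).

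MCOLN1, a calcium channel of the lysosomal membrane, stood at 1162, 1189 and 1197 in Control KD, 1688, 1430 and 1363 in EloB KD, and 2004, 2983 and 2144 in EloC KD. The 3 groups were fully separated, although only the EloC KD change passed the test (0.98 ± 0.15, adjusted p = 0.000456; EloB KD 0.33 ± 0.15, 0.138). CLCN7, a chloride-proton exchanger, stood at 2062, 2525 and 3190 in Control KD and 4653, 5991 and 5300 in EloC KD (1.05 ± 0.16). CD63, a tetraspanin, rose by 0.78 ± 0.13 from a high level, and CTNS, the cystine exporter, by 0.34 ± 0.12. The CTNS call (adjusted p = 0.0472) was lost without any of the 6 libraries except Control KD replicate 3, with adjusted p up to 0.162, and without the filter on low values (0.0572).

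GPNMB, a membrane glycoprotein first known from melanoma cells and also made by macrophages and osteoclasts, had the largest log2 fold change of the 42 genes in EloC KD. It stood at 35.8, 28.1 and 24.3 in Control KD, 24.2, 33.6 and 38.8 in EloB KD, and 133, 162 and 101 in EloC KD. The EloC KD libraries were about 4.34-fold higher (2.12 ± 0.27, adjusted p = 0.000196), though the level stayed low beside other lysosomal genes. Sums of 6 melanocyte markers were 73.5 to 88.7 in Control KD, 139 to 167 in EloB KD and 92.0 to 117 in EloC KD, with TYR at 0 in all 3 EloC KD libraries. Sums of 8 macrophage and osteoclast markers were 2418 to 2880, 2374 to 2965 and 2677 to 3231. The part of either marker list in the GPNMB value was not tested.

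**Figure D3:**
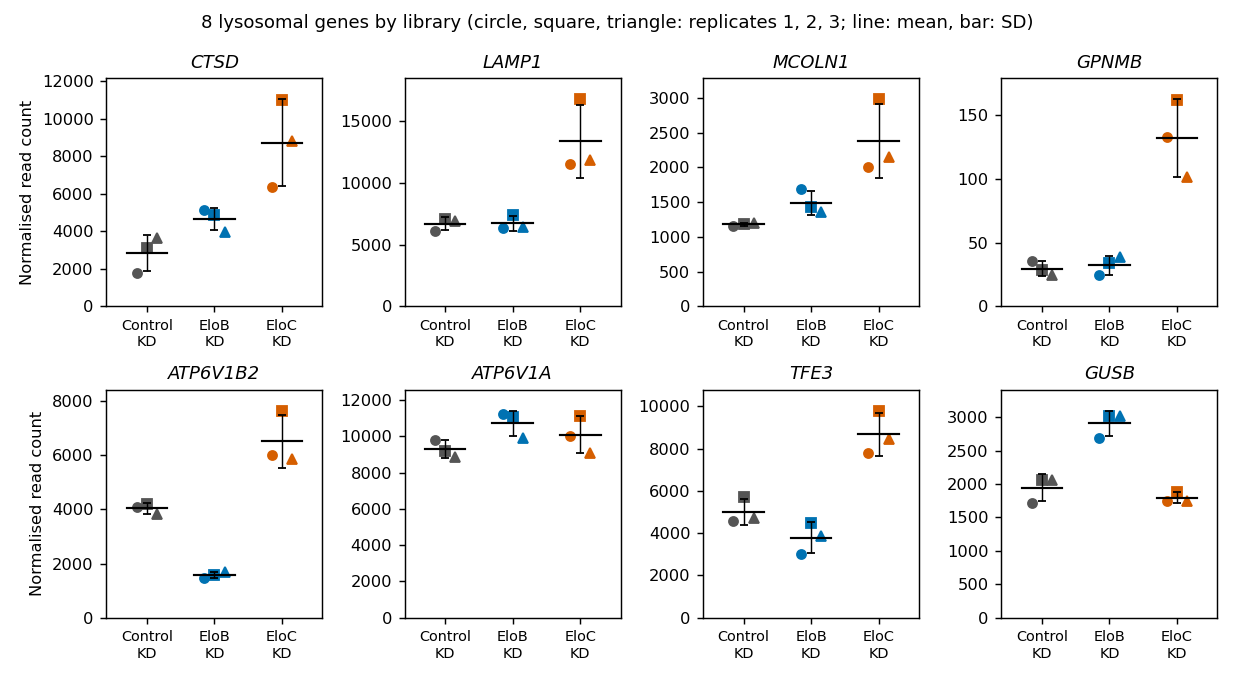
Normalised read counts (y axis, from 0) of 8 lysosomal genes in the 9 knockdown libraries; circles, squares and triangles are replicates 1, 2 and 3, lines are means and bars SDs (n = 3). CTSD, LAMP1, MCOLN1, GPNMB and TFE3 are highest in EloC KD, GUSB in EloB KD, ATP6V1B2 is lowest in EloB KD at 1451 to 1694, and ATP6V1A is similar in the 3 groups.

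Of the V0 sector and accessory subunits of the proton pump, 4 of 5 rose in EloC KD (21.3% of all genes) and 1 rose in EloB KD (9.34%). The 4 include ATP6V0A1, and without it 3 of 4 rose. ATP6AP1, an accessory subunit needed for assembly, stood at 5523, 5832 and 5543 in Control KD, 9702, 8836 and 7912 in EloB KD, and 9046, 11582 and 9468 in EloC KD. Both knockdowns lay above the control, by 0.64 ± 0.11 (adjusted p = 0.00273) and 0.82 ± 0.11 (0.000249), and the knockdowns overlapped each other (adjusted p = 0.197). ATP6V0D1, the d subunit that links the rotor to V1, rose in EloC KD by 0.75 ± 0.17 and ATP6V0E1, a small membrane subunit, by 0.31 ± 0.09. The ATP6V0E1 call was lost without EloC KD replicate 2 (adjusted p = 0.0862) and without Control KD replicate 2 or 3 (0.0688 and 0.0668). ATP6AP2, the second accessory subunit, passed in neither knockdown (0.16 ± 0.16 and 0.25 ± 0.16), and in EloC KD it passed with the replicate block (0.00846).

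ATP6V0A1, one of several isoforms of the a subunit, was close to the detection limit, at 6.59, 4.39 and 3.65 in Control KD, 8.39, 9.6 and 15.2 in EloB KD, and 27.7, 17.2 and 24.2 in EloC KD. The EloC KD libraries were above all others, and Control KD and EloB KD did not overlap. The gene was tested only because its EloC KD counts lifted its mean over the filter, so its log2 fold change of 2.04 in EloC KD is given as a description. The a-subunit isoform ATP6V0A2 was far more abundant, at 2381, 2158 and 2443 in Control KD, and passed in neither knockdown (adjusted p = 0.277 and 0.204). ATP6V0A2 was chosen for naming after its values were seen.

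The V1 sector held the gene on which the knockdowns differed most. ATP6V1B2, the widely expressed isoform of the B subunit, which forms the catalytic ring together with subunit A, stood at 4104, 4200 and 3819 in Control KD. It stood at 1451, 1566 and 1694 in EloB KD, and at 6009, 7650 and 5864 in EloC KD. No group overlapped another: EloB KD was 2.58-fold lower than the control (-1.36 ± 0.11, adjusted p = 7.34e-05) and EloC KD 1.60-fold higher (0.68 ± 0.11, 0.000909). The difference between the knockdowns was -2.04 ± 0.11 (adjusted p = 2.48e-06), the largest of the 42 genes in that comparison. ATP6V1B2 lies at chr8:20197367-20226819 (GRCh38, plus strand), and no other annotated gene shares its exon bases.

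The subunit that pairs with it, ATP6V1A, did not move in parallel. ATP6V1A stood at 9828, 9210 and 8858 in Control KD, 11212, 11051 and 9918 in EloB KD, and 10048, 11149 and 9106 in EloC KD, with log2 fold changes of 0.21 ± 0.10 (adjusted p = 0.156; 0.0415 with the block) and 0.12 ± 0.10 (0.35). Stalk and regulatory subunits rose in EloC KD: ATP6V1D by 0.78 ± 0.14, ATP6V1C1 by 0.75 ± 0.11 and ATP6V1H by 0.50 ± 0.11. In EloB KD their values were 0.44 ± 0.14 for ATP6V1D (adjusted p = 0.0504; 0.0388 with edgeR and 0.0014 with the block), -0.05 ± 0.11 for ATP6V1C1 and 0.18 ± 0.11 for ATP6V1H. ATP6V1E1, a peripheral stalk subunit, followed the replicate number rather than the knockdown: 6372, 8675 and 6062, then 5816, 9308 and 6421, then 5903, 9477 and 6168 (0.02 ± 0.22 and 0.01 ± 0.22).

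The MiT factors differed among themselves. TFE3 stood at 4578, 5716 and 4706 in Control KD, 3005, 4463 and 3852 in EloB KD, and 7782, 9801 and 8444 in EloC KD. EloC KD lay above both other groups (0.80 ± 0.15, adjusted p = 0.00183) and EloB KD below the control without passing the test (-0.42 ± 0.15, 0.0749; 0.00215 with the block), a difference between the knockdowns of -1.21 ± 0.15 (0.000124). MITF, at 2034, 1221 and 1536 in Control KD and 2141, 2723 and 1816 in EloC KD, overlapped the control (0.49 ± 0.19, 0.0558) and was lower in EloB KD than in EloC KD (-0.68 ± 0.19, 0.0129). TFEB was low, at 78.2, 145 and 138 in Control KD and 139, 240 and 137 in EloC KD (0.51 ± 0.28, 0.172), and the 3 groups overlapped. With the block, TFEB (0.0434) and MITF (0.0347) also passed in EloC KD. MITF passed there too with DESeq2 (0.0383), edgeR (0.0498) and TMM scaling (0.0488), and when Control KD replicate 1 (0.0114) or the third EloC KD library (0.032) was left out. Its difference between the knockdowns missed the threshold without EloC KD replicate 2 (0.054).

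Both receptors that deliver hydrolases rose in EloC KD. Of all genes, 21.3% rose in EloC KD, and 9.34% rose and 11.2% fell in EloB KD. IGF2R, the large mannose 6-phosphate receptor, which also binds insulin-like growth factor, stood at 9055, 9019 and 8818 in Control KD, 8682, 8328 and 6993 in EloB KD, and 16164, 16918 and 10333 in EloC KD. EloC KD replicate 3 was the nearest to the control, and the change was 0.66 ± 0.17 (adjusted p = 0.00899). M6PR, the small receptor, stood at 3609, 3807 and 3705 in Control KD and 5082, 6383 and 5463 in EloC KD (0.60 ± 0.10, adjusted p = 0.00103). Neither passed in EloB KD (-0.17 ± 0.17 for IGF2R and 0.00 ± 0.10 for M6PR, the latter overlapping the control). M6PR shares 29.3% of its exon bases, and CTSA 28.5%, with genes on the opposite strand, and the strand setting of the counting is not given in the sources used here.

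Promoters of these genes were searched for the E-box CACGTG, the core of the element through which MiT factors bind lysosomal genes, because many of the genes rose together. RefSeq promoters (GRCh38.p14, from 250 bases before to 50 after the start) were matched for 31 of the 43 genes. CACGTG, which reads the same on both strands, occurred in 11 of them (35.5%), against 8.77% of 27305 genes with a promoter in the table. The overlapping longer form TCACGTG, searched on both strands, occurred in 10 (background 4.49%), and the full palindrome, CACGTG with GT before it and AC after it, in 3 (background 0.421%). Of the 20 matched genes that rose in EloC KD, 10 held CACGTG, and of the other 11 matched genes 1 did (GAA). ATP6V0A1, without the motif, is among the 20 although it was tested only through its EloC KD counts. The split uses calls from these same libraries, and no share for all genes that rose is given beside it. Any part of the motif in the rise was not tested. Some of the promoters that hold the motif are printed below, each as the 200 bases before the start on the plus strand. Promoters without the motif are not printed. Capitals mark TCACGTG or its reverse complement.
LAMP1: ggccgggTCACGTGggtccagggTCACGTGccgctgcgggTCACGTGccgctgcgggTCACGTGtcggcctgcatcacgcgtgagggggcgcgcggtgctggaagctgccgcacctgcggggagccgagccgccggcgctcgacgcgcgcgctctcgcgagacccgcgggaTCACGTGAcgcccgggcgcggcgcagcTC
IGF2R: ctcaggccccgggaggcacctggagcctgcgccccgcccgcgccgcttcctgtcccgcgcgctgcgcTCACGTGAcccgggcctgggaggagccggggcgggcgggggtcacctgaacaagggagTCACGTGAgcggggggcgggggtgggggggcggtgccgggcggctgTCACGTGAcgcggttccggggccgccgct
CTSA: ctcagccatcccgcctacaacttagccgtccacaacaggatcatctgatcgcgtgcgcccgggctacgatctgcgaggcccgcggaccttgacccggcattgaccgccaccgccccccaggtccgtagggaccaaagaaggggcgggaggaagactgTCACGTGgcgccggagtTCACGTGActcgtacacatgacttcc
MCOLN1: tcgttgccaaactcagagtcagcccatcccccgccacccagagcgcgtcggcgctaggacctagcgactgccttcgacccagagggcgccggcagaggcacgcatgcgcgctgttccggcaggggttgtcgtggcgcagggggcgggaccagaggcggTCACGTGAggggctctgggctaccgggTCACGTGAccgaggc
GAA: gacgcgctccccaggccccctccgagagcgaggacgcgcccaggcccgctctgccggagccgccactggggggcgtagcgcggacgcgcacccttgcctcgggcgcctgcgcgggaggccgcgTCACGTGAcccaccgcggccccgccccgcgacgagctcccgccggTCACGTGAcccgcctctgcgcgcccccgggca

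These stretches lie at chr13:113297039-113297238 (LAMP1), chr6:159968882-159969081 (IGF2R), chr20:45891135-45891334 (CTSA), chr19:7522424-7522623 (MCOLN1) and chr17:80101381-80101580 (GAA). LAMP1 holds 6 copies of CACGTG, of which 4 lie in a row and the last, whose first letters end the line, runs over the start. IGF2R holds 3 copies, and CTSA, MCOLN1 and GAA hold 2 each. Both copies in GAA are the full palindrome, which MCOLN1 and IGF2R hold once each. GAA stood at 4156, 5434 and 6226 in Control KD and 3725, 4168 and 4698 in EloC KD, with overlapping libraries. Its fold change passed in EloC KD, as lower, under 1 of the alternatives run (without Control KD replicate 1). The other genes with a copy were CLCN7, CTSD, NEU1, ATP6V0D1, CD63 and M6PR. A match describes these letters in this window only.

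Other genes of the lysosomal pathway moved less uniformly in the same libraries. Of 151 tested genes in 8 further lists, 46 rose (30.5%) and 20 fell (13.2%) in EloC KD (median 0.14), beside 21.3% and 21.2% of all genes. In EloB KD 18 rose (11.9%) and 10 fell (6.62%; median 0.08), beside 9.34% and 11.2%. With the replicate block 57 (37.7%) and 30 (19.9%) did so in EloC KD, beside 28.7% and 28.3% of all genes, and 36 (23.8%) and 19 (12.6%) in EloB KD, beside 17.5% and 18.8%. Of 10 further V-ATPase subunits, 4 rose and 1 fell in EloC KD. The d-subunit isoform ATP6V0D2, typical of osteoclasts and kidney, is counted among the 4 and among the 46. It went from 2.83, 10.5 and 6.09 in Control KD to 107, 140 and 89.5 in EloC KD. Its control counts were near the detection limit, and its EloC KD counts raised the mean that the filter used. Its log2 fold change of 4.04 is therefore given as a description. ATP6V0A4, an a-subunit isoform typical of kidney, rose in EloB KD from 29.2, 21.9 and 25.6 to 108, 71.1 and 84.3 (1.73 ± 0.26).

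The counts of the next lists stand beside 21.3% of all genes higher and 21.2% lower in EloC KD, and 9.34% and 11.2% in EloB KD. Among 11 further proteases, 4 rose and 3 fell in EloC KD, with PRCP (1.27 ± 0.16) and SCPEP1 (1.15 ± 0.13) up and CTSO (-2.11 ± 0.25) and LGMN (-0.75 ± 0.09) down. Of 28 further hydrolases, 11 rose and 6 fell, among the latter SUMF1, which activates sulfatases (-0.89 ± 0.09). Of 27 further membrane proteins, 8 rose and 3 fell, with the amino acid sensor SLC38A9 (1.24 ± 0.11) up and SIDT2 (-1.17 ± 0.14) down. In EloB KD, 2 of these proteases rose and 1 fell, 7 hydrolases rose and 2 fell, and 3 membrane proteins rose and 2 fell. Those that rose included PRCP (0.87 ± 0.16), the sulfatase ARSB (0.74 ± 0.09) and the membrane protein LAPTM4A (0.69 ± 0.09). Those that fell included SLC29A3, a nucleoside transporter (-2.12 ± 0.18), and acid sphingomyelinase SMPD1 (-1.21 ± 0.17).

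Regulators that link nutrients to MiT factors were tested as a list of 21 genes. Of these, 8 rose and 2 fell in EloC KD, beside 21.3% and 21.2% of all genes. In EloB KD 1 rose and 1 fell, beside 9.34% and 11.2%. RRAGC, a Rag GTPase that brings mTORC1 and MiT factors to the lysosome, stood at 3271, 3182 and 2810 in Control KD, 2976, 3142 and 2928 in EloB KD, and 6672, 9220 and 6256 in EloC KD. It was higher in every EloC KD library (1.24 ± 0.13, adjusted p = 8.2e-05) and overlapped the control in EloB KD (-0.03 ± 0.13, 0.894). FNIP2, a partner of folliculin, rose in EloC KD by 0.62 ± 0.11. The Ragulator subunits went both ways, with LAMTOR3 at 0.71 ± 0.12 and LAMTOR5 at -0.66 ± 0.11. The MiT relative TFEC fell in EloB KD (-1.33 ± 0.25).

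None of the 40 lysosomal genes tested passed the test after treatment with a BC-box peptide. In WT peptide against scrambled peptide, 0 of 40 passed (limma), beside 1.43% of 13105 genes (0.839% higher and 0.595% lower), and 4 of the 40 had an unadjusted p under 0.05. In Mutant peptide against the same scrambled libraries, 0 of 40 and 0% of all genes passed, with 1 of 40 at an unadjusted p under 0.05. WT against Mutant peptide gave 0 of 40 and 0%, with 2 of 40. Over all genes, 1142 (Mutant against scrambled) and 898 (WT against Mutant) had an unadjusted p under 0.05, and edgeR called 0 in both. edgeR called none of the 40 in any of these comparisons, and DESeq2 called CTSD alone, lower with the Mutant peptide (adjusted p = 0.0257). Log2 fold changes ran from -0.47 (TFEB) to 0.13 (PPT1) with the WT peptide and from -0.44 (TFEB) to 0.11 (CTSH) with the Mutant peptide. For 38 of the 40 genes in each comparison the 95% interval lay within 0.5 log2 of no change.

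CTSD showed the smallest p of these genes with the Mutant peptide. It stood at 4665, 4896 and 5401 with the scrambled peptide, 4256, 4374 and 4062 with the Mutant peptide, and 4598, 4518 and 4366 with the WT peptide. Both BC-box peptide groups lay below the scrambled libraries, by -0.24 ± 0.06 (Mutant, adjusted p = 0.199) and -0.15 ± 0.06 (WT, 0.29). With the replicate block CTSD passed in both (0.0073 and 0.0487), as did TFEB (0.0281 and 0.0109). TFEB stood at 233, 135 and 196, then 164, 104 and 144 (Mutant), then 168, 114 and 119 (WT), so the groups overlapped while each peptide library was below the scrambled library of its number.

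With the block, the WT peptide also gave a higher PPT1 and lower CD63 and CTSZ (1 gene higher and 4 lower, beside 7.96% and 8.23% of all genes). The Mutant peptide also gave lower CLCN7 and TFE3 (0 higher and 4 lower, beside 3.72% and 4.59%). TFE3 was higher with the WT than with the Mutant peptide (0.15 ± 0.09, 0.0313 with the block and 0.841 without), the 1 gene higher and 0 lower with the block, beside 2.4% and 1.69% of all genes. Libraries did not overlap for 3 genes higher and 3 lower with the WT peptide (10.3% and 9.42% of all genes), and for 2 higher and 1 lower with the Mutant peptide (7.02% and 6.65%). For WT against Mutant peptide they were separated for 2 higher and 0 lower (6.4% and 5.74%), namely CTNS (0.19 ± 0.07) and MCOLN1 (0.14 ± 0.05).

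ATP6V1B2, which moved in both knockdowns, stood at 2552, 2656 and 2610 with the scrambled peptide, 2574, 2608 and 2845 with the Mutant peptide, and 2753, 2833 and 2602 with the WT peptide. These overlap, and its 95% interval for the WT peptide ran from -0.05 to 0.18. LAMP1 stood at 5646, 5390 and 6286, then 5613, 5343 and 5911, then 6202, 5762 and 6116, with an interval of -0.08 to 0.21 for the WT peptide. GPNMB, under the filter, stood at 7, 11.8 and 5.91 with the scrambled peptide, 1.02, 4.81 and 4.84 with the Mutant peptide, and 18.6, 13.8 and 8.15 with the WT peptide. Of 147 other lysosomal pathway genes, CD68 alone passed, lower with the WT peptide at 1618, 1925 and 1678 against 2451, 2726 and 2498 (-0.56 ± 0.07, adjusted p = 0.00453). That is 0.68% of these genes, close to the 0.595% of all genes that were lower.

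**Figure D4:**
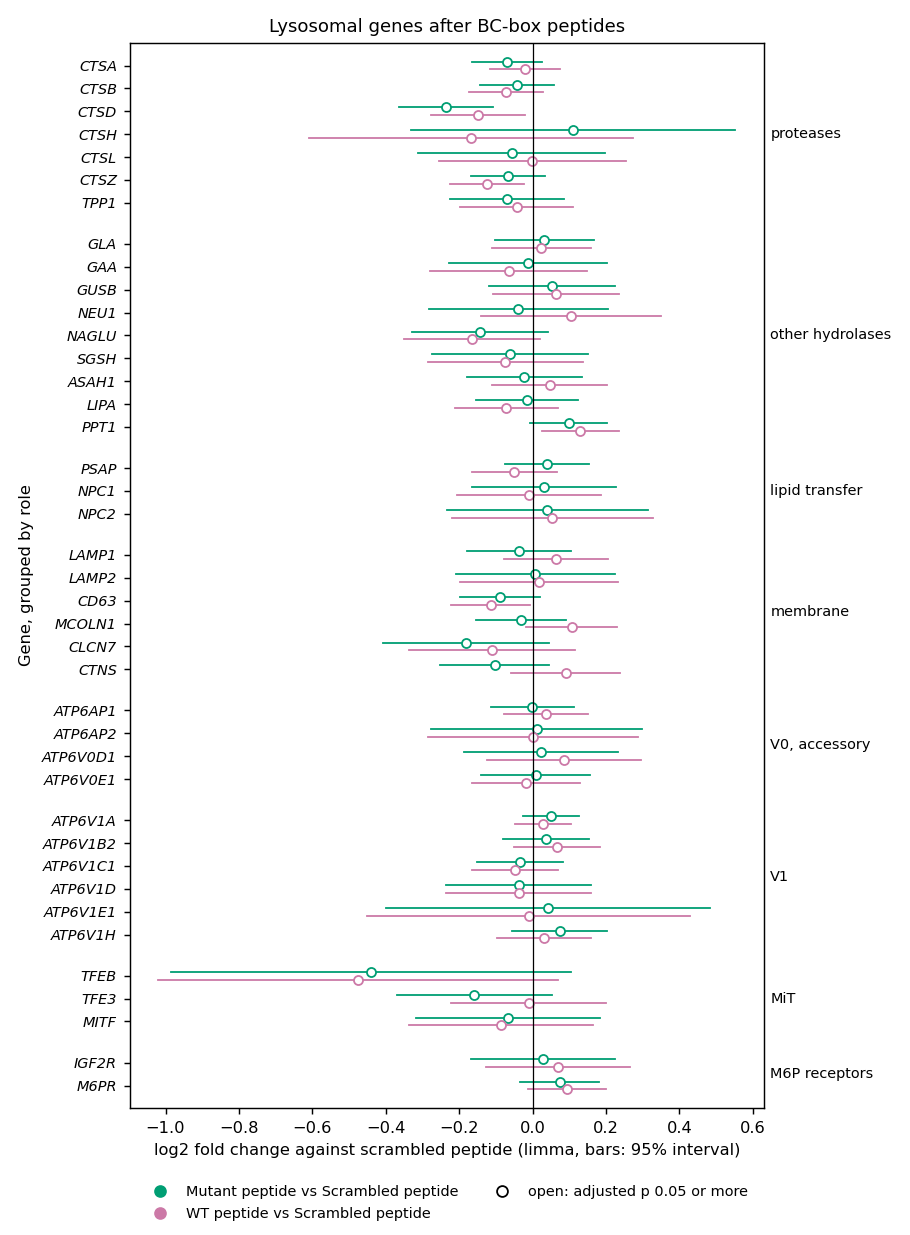
Log2 fold change (x axis, limma, bars are 95% intervals) of the 40 lysosomal genes tested after the Mutant (green) and WT (pink) peptides, both against the same 3 scrambled peptide libraries; open points have an adjusted p of 0.05 or more. All points are open and lie between -0.47 and 0.13, with the widest intervals for TFEB, CTSH and ATP6V1E1.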

How the data were processed

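PC3 RNA was sequenced as stranded mRNA libraries, per the labels' protocols. Reads were aligned to hg38, counted with featureCounts and normalised with DESeq2 (versions not stated), per the submitters' processing notes. For each experiment the authors deposited 1 table of normalised read counts, a signal with 1 column per library. Dividing by each library's step gave back whole reads within 0.05 reads for all values, which entered the edgeR and DESeq2 alternatives only. The authors also deposited an adjusted p-value per gene for 4 comparisons. By the authors' deposited tables, 7 of the 43 genes passed in EloB KD, 30 in EloC KD, 28 between the knockdowns and 0 with the WT peptide. They included 5 of the 5, 29 of the 29 and 28 of the 29 genes called here.

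The main test was limma 3.58.1 (R 4.3.3) with an intensity trend on log2(normalised count + 1), for every gene whose mean reached 10 across an experiment's 9 libraries (13764 and 13105 genes), with 3 groups sharing 1 spread. It made 6 2-sided comparisons with Benjamini-Hochberg adjustment over all genes and a threshold of 0.05. Alternatives were a pseudocount of 5, no filter, TMM scaling, the quasi-likelihood test of edgeR 4.0.16 and the DESeq2 1.42.0 test on recovered reads, a replicate block, only the 2 groups compared, and leaving out each library. Scripts were tested on simulated data. An exact permutation test of 3 against 3 cannot go below 0.1, and none was run for single genes. Libraries with the same replicate number deviated together in every pair of groups (correlation 0.236 to 0.566 between knockdown groups and 0.254 to 0.715 between peptide groups). Libraries with different numbers had correlations of -0.439 to 0.0703 and of -0.546 to 0.336, so the ranges overlapped in the peptide experiment. The numbers were taken to pair the libraries, a hint from the data and not from the labels, and a weaker one for the peptides. Comparisons with 1 control share its libraries. Replicate libraries differed by more than sampling noise (chi-square per degree of freedom of at least 5.05).

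The genes, the pathway and marker lists and the tests were chosen with earlier results of these data known. Any of the 43 genes could be named, and of each pathway list the 4 with the smallest adjusted p in a comparison. Gene positions and exon lengths are from GENCODE (GRCh38), promoters from RefSeq (GRCh38.p14); 12 of the 43 genes had no promoter entry in the table used. Some pathway genes that this rule allows are not reported here.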

Additional observations from a re-analysis of the deposited data

Results flagged for a closer look

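ATP6V1B2 was called in opposite directions in the knockdowns, with every EloB KD library below and every EloC KD library above Control KD. The direct comparison of EloB KD with EloC KD gave a log2 difference of -2.04 ± 0.11 (limma adjusted p = 2.48e-06; 7.3e-56 to 3e-05 over the alternatives).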

How the results depend on the processing

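Scaling moved the median of all genes by less than 0.1 log2 in every comparison, and no gene called in a comparison changed direction under any alternative; sign changes of genes called in neither fit were not counted. With the replicate block, the genes called among all tested rose to 4996 (EloB KD), 2122 (WT against scrambled), 1088 (Mutant against scrambled) and 536 (WT against Mutant). Among the 43 genes the block gave 9 higher and 3 lower in EloB KD, 2 lower in EloC KD, 1 higher and 4 lower with the WT peptide, 4 lower with the Mutant peptide and 1 higher in WT against Mutant peptide; it ended no call, and changed none beyond these and those given in the report. In EloB KD against EloC KD it added CTSL and CTSH (higher) and LAMP2 and ATP6V1D (lower). DESeq2 on recovered reads called 582 (WT against scrambled), 184 (Mutant against scrambled) and 63 (WT against Mutant) of all genes, and 1 of the 43 genes lower with the Mutant peptide; the cause was not tested. Leaving out 1 library gave 1915 to 2373, 4506 to 5413 and 5170 to 5626 calls over all genes (EloB KD, EloC KD, EloB KD against EloC KD), 66 to 180 with the WT peptide and 0 to 1 with the Mutant peptide. With the WT peptide, all-gene calls were 95, 98, 67 and 66 without scrambled replicate 1, scrambled replicate 2, WT replicate 1 and WT replicate 3. Among the 43 genes, leaving out 1 library gave 2 to 4 higher and 1 to 2 lower in EloB KD (2 lower without EloB KD replicate 2), and 24 to 28 higher and 0 to 1 lower in EloC KD (0 without Control KD replicate 2 or 3 or EloC KD replicate 2). Between the knockdowns it gave 2 to 4 higher (2 without EloC KD replicate 1) and 20 to 24 lower. Calls that some alternative ended were CTSL and NAGLU in EloB KD, CTSB, CTSH, TPP1, CTNS and ATP6V0E1 in EloC KD, and MITF, ATP6V1H, PSAP, CTSD, TPP1, ATP6V0A1, GAA and CTSZ between the knockdowns. Depth limits ATP6V0A1 and GPNMB, whose counts are near 0 in some groups; HEXA is near 0 in all groups, and why was not tested.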
